A study of Mus musculus with 18 samples.

Results

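The common sites described here are regions of liver chromatin that were open in every one of 7 inbred mouse strains. They also belonged to the sites with the least evidence of a difference between these strains in the authors' test of read counts. They were chosen by 2 readouts of the same libraries: a place on the deposited list of common sites, and a peak overlapping the site by 1 bp or more in each of the 7 deposited strain lists. On the autosomes 1002 sites met both conditions, out of 2531 common sites (39.6%, 95% exact binomial interval 37.7 to 41.5%), 13909 sites called in all 7 strains and 50121 sites in the union of the 7 lists. The union held 50775 sites with the sex chromosomes, and a further 2 common sites on the X chromosome called in all 7 strains were left out by the rule. Of all autosomal union sites, 27.8% were called in all 7 strains.

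Liver came from BXH2/TyJ and BXH19/TyJ, both recombinant inbred lines bred from C57BL/6J and C3H/HeJ, and from male mice of the inbred AKR/J, CBA/J, BALB/cJ, A/J, DBA/2J, C57BL/6J and C3H/HeJ, with 2 mice a strain and 18 libraries in all. The labels give no sex for the BXH mice. Inbred mice ate chow until 8 weeks of age and then a diet rich in fat and sucrose for 8 weeks, and the BXH lines were kept in the same way, so every group had eaten this diet. FAIRE-seq sequences the DNA that formaldehyde does not trap with nucleosomes, and regions of accessible chromatin appear as peaks. Each strain has 1 deposited list in which both mice were combined, so the values have no replicate error, and 26769 to 30613 peaks were listed per strain. The lists give a signal for each peak but no read counts, so the depth behind a single site is not known from them. A percentile below is the rank of a site's strongest peak among all peaks of that strain's list, with 100 the highest, and shows a rank within a list and not an amount of accessibility. Whole liver holds several cell types, and a low rank in all cells cannot be told apart from a high rank in few cells.

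Open chromatin in a tissue falls into broad classes. Promoters, and above all those that lie in CpG islands, are kept free of nucleosomes around the transcription start site (TSS) in most cell types, and factors such as SP1, NFY, NRF1 and ETS proteins bind there. Distal sites include enhancers, which in hepatocytes are bound by HNF4A, FOXA and C/EBP factors and tend to be tissue specific, and insulators, which are bound by CTCF.

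The sequences of 7 sites are given first, because they show the range found among the 1002: promoters at the top of every list, a promoter without a peak in either BXH list, the highest distal site, distal sites that ranked low in 1 strain, and the lowest site. All are read from the + strand of mm9, which is the C57BL/6J sequence, so other strains may differ from them in single bases. Each is the longest stretch without an annotated exon within the central 300 bases of the site. For Trappc1 and Cntrob and for Ubxn8 this stretch is shorter and lies to 1 side of the midpoint. Capitals mark matches to the letters of a searched motif on either strand: GGGCGG (SP/KLF GC box), CCAAT (NFY), CCGGAAG (ETS), GCATGCGC (NRF1 core), TTGCNNAA (C/EBP), TGACGTCA (CRE), AGGNGGCAG (CTCF core), CAAAGT (part of the HNF4A site) and TTCNNNGAA (STAT GAS).
Trappc1 and Cntrob: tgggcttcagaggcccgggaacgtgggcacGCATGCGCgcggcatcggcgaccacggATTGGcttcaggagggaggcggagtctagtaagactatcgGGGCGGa
Zdhhc5: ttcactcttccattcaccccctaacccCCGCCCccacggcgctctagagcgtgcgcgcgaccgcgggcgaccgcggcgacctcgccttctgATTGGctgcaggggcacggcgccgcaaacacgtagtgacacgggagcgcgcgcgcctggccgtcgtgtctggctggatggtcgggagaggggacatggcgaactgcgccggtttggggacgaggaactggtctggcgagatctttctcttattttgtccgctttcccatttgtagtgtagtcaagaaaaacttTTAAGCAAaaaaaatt
Ubxn8: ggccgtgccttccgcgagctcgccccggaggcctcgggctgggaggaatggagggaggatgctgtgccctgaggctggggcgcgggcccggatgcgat
Itpkb intron: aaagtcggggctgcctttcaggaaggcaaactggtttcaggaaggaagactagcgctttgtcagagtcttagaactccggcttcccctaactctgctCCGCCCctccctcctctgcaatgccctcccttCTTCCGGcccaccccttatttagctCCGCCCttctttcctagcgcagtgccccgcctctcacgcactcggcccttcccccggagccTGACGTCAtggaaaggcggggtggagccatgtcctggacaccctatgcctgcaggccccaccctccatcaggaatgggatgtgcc
Kcnk15 distal: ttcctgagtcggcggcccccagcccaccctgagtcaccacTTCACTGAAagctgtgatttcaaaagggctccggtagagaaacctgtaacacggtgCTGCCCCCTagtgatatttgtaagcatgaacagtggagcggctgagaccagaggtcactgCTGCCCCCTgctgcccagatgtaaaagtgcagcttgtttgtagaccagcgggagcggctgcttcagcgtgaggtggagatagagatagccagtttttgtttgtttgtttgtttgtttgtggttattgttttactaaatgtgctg
Irs2 distal: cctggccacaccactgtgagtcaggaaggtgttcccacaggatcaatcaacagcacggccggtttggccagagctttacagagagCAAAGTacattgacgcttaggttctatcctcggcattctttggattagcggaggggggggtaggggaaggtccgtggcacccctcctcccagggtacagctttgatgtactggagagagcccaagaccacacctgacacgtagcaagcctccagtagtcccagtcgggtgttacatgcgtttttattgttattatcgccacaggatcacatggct
Gm10495 distal: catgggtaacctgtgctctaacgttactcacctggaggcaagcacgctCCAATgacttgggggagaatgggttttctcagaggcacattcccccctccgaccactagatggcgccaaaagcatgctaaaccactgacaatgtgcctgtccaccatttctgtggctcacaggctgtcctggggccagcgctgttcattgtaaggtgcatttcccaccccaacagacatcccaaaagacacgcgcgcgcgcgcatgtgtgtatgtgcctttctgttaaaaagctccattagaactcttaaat
These stretches lie at chr11:69137378-69137481 (Trappc1 and Cntrob), chr2:84555455-84555754 (Zdhhc5), chr8:34752449-34752546 (Ubxn8), chr1:182317555-182317854 (Itpkb intron), chr2:163663861-163664160 (near Kcnk15), chr8:11055628-11055927 (near Irs2) and chr17:66584540-66584839 (near Gm10495). The Trappc1 and Cntrob stretch held an NRF1 core, an NFY and a GC box match within 104 bases, and 12 CpG dinucleotides. Zdhhc5 held 32 CpG in 300 bases with a GC box, an NFY and a C/EBP match. The 98 bases shown for Ubxn8 held 10 CpG and none of the motifs, while the central 300 bases of that site, exons included, held 31 CpG with ETS and GC box matches. In the intron of Itpkb, which encodes an inositol trisphosphate kinase, there were 2 GC boxes, an ETS and a CRE match. The Kcnk15 stretch carried 2 CTCF core matches in the same orientation, and the Irs2 stretch a single CAAAGT match. A match is a description of letters and does not show that a factor was bound.

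Common sites called in all 7 strains were mostly promoters. A TSS lay within 1 kb of the midpoint of 741 sites (74.0%, 95% interval 71.1 to 76.6%), while 133 were intergenic, 110 intronic and 18 exonic. The 741 promoter sites lay close to the start, with a median distance of 100 bp, and for 24 of them no protein-coding TSS lay within 1 kb. Protein-coding genes on both strands, as at Trappc1 and Cntrob, were within 1 kb of 117 sites (11.7%), compared with 7.03% of the other union sites called in all 7 strains and 2.64% of all autosomal union sites. Only promoter sites can be of this kind, and the sets differ in promoter share. Among promoters it was 117 of 741 (15.8%), against 908 of 7843 at the other union sites called in all 7 strains. The 261 distal sites had a median distance of 10558 bp to the nearest protein-coding TSS, with 126 within 10 kb, 120 between 10 and 100 kb, and 15 farther away.

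The place on the annotation was not used by the rule and was tested, although it moved with level, which differed between the selected and the other sites. Promoters made up 74.0% of the 1002 sites against 10.9% of the 1529 common sites called in 1 to 6 strains (odds ratio 23.2, two-sided Fisher's exact test, p = 8.8e-241, Benjamini-Hochberg adjusted p = 1.8e-240 over 6 comparisons). The odds ratio was 9.27 where a peak had to cover at least 50% of a site, 37.4 with the 20000 highest peaks of each list and 15 with a TSS within 2 kb. Over all autosomal union sites the promoter share was 33.2%. The other common sites ranked far lower, with a median mean percentile of 13.0 against 81.3, and the 2 sets were not compared at equal level. Set against the 12907 other union sites called in all 7 strains, of which 60.8% were promoters, the difference was smaller (odds ratio 1.83, two-sided Fisher's exact test, p = 3.0e-17, adjusted p = 4.6e-17). Level moved with this result: among sites with a mean percentile between 60 and 80, 77.9% of the common sites and 52.8% of the others were promoters, between 40 and 60 the shares were 39.1% and 40.2%, and between 20 and 40 they were 20.2% and 36.7%. The part of level in either difference was not tested. Sites are the units of these tests, and neighbouring sites are not independent.

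**Figure D1:**
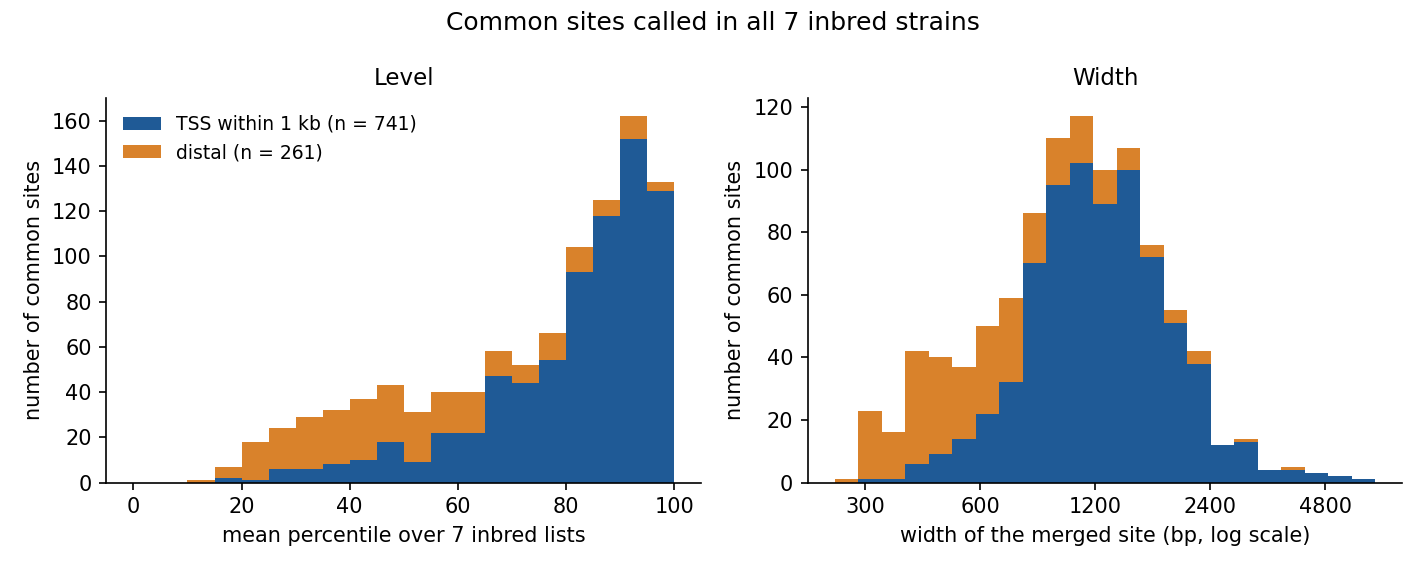
Number of common sites called in all 7 inbred strains by mean percentile over the 7 inbred lists (left) and by width of the merged site in bp on a log scale (right), with promoter sites (TSS within 1 kb, n = 741) in blue and distal sites (n = 261) stacked in orange. Promoter sites gather at the high end of both scales, with medians of 86.1 and 1213 bp, against 47.9 and 589 bp for distal sites.

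Promoter sites were wider and ranked higher than distal sites. Over all 1002 sites the merged width ran between 288 and 6183 bp with a median of 1066 bp (quartiles 731.8 and 1499 bp). The median was 1213 bp at promoters and 589 bp at distal sites. Of the 95 sites of 2 kb or more, 88 were promoters, while only 17 of the 118 sites under 500 bp were. Other common sites had a median width of 315 bp and other union sites called in all 7 strains one of 959 bp. A merged site is as wide as its widest combination of peaks, and the strains' own peaks at the 1002 sites had a median width of 806 bp. Because the sites were selected on calls in all lists, widths and levels are described and carry no test.

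The mean percentile over the 7 inbred lists had a median of 81.3, with quartiles of 58.6 and 91.9 and a range between 14.8 and 100. Promoter sites had a median of 86.1 and distal sites of 47.9, compared with 13.0 for other common sites and 71.6 for other union sites called in all 7 strains. In every one of the 7 lists 710 sites (70.9%) ranked above the 50th percentile, and 167 (16.7%) above the 90th, of which 157 were promoters and 10 distal. At the other end, 72 sites (7.19%) ranked below the 50th percentile in every list, 13 of them promoters and 59 distal.

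**Figure D2:**
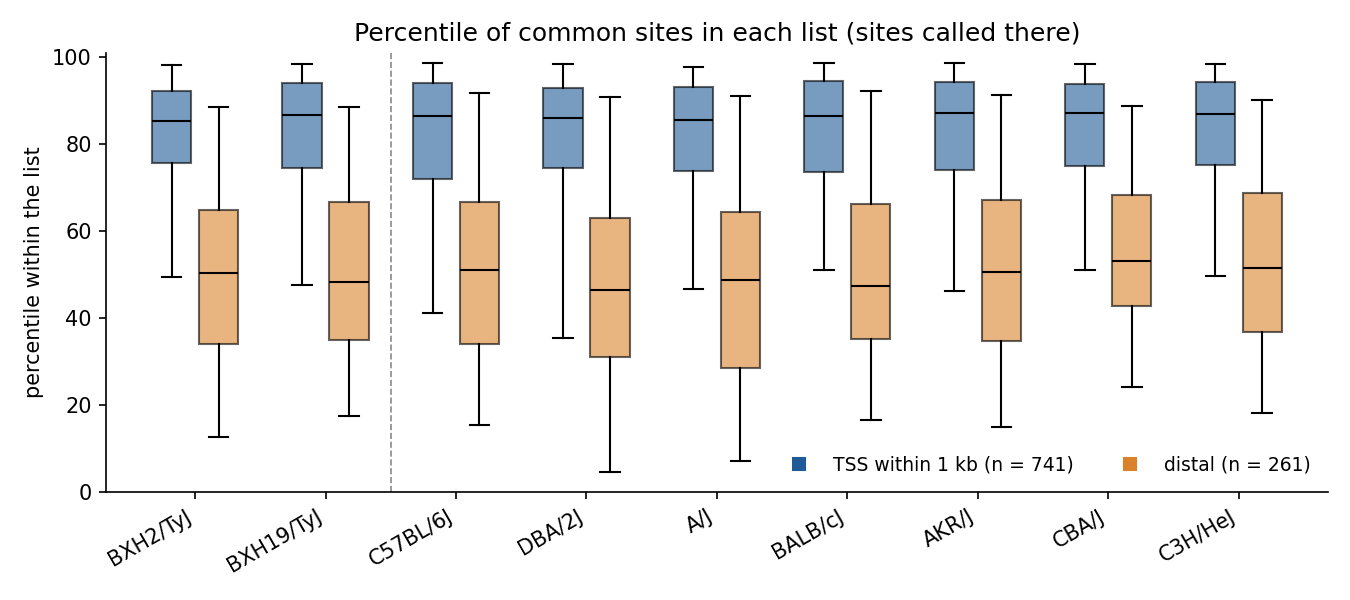
Percentile within the list (vertical axis) of the common sites in the 2 BXH lists (left of the dashed line) and the 7 inbred lists, for promoter (blue) and distal (orange) sites called there. Lines are medians, boxes quartiles, and whiskers the 5th and 95th percentiles of the sites. Promoter medians lie between 85.5 and 87.3 in the 9 lists and distal medians between 46.4 and 53.2.

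Median levels lay close together in the 9 lists. The median percentile at the 1002 sites was 80.2 in BXH2/TyJ and 81.3 in BXH19/TyJ, at the sites called there. Among the inbred strains it was 80.3 in A/J, 82.7 in AKR/J, 81.5 in BALB/cJ, 81.5 in C3H/HeJ, 80.3 in C57BL/6J, 81.7 in CBA/J and 80.6 in DBA/2J. The lowest values were not spread evenly: A/J had the lowest percentile at 269 sites, DBA/2J at 230 and C57BL/6J at 192, against 62 to 103 in each of the other 4 strains. In A/J this is 26.8% of the sites, against 33.9% of the other union sites called in all 7 strains, and in C57BL/6J 19.2% against 17.7%. Among the inbred strains, the paper lists the fewest filtered reads for the A/J libraries. It lists more for those of DBA/2J and C57BL/6J than for those of BALB/cJ. The parts of depth and of list length in these ranks were not tested. Own peaks were narrowest in DBA/2J, with a median of 582.5 bp, and widest in BALB/cJ, with 944.0 bp. DBA/2J also split 182 of the sites into more than 1 peak and BALB/cJ 38.

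A site's rank varied little between the 7 inbred strains. The SD of the percentile over the 7 lists had a median of 5.06 points, 4.20 at promoter and 9.76 at distal sites, compared with 8.31 for other common sites and 10.4 for other union sites called in all 7 strains. It was under 5 points at 492 sites (49.1%) and over 15 at 54 (5.39%). Small spread is near to what selected the sites, since the common list was ranked on the same libraries, and is given without a test. Above a mean percentile of 20, spread was smaller at higher levels in both sets, and at equal level the common sites had the smaller median there: 13.1 against 17.8 points between 20 and 40, 10.1 against 16.4 between 40 and 60, 6.78 against 11.4 between 60 and 80, and 2.40 against 3.01 above 90. Under 20 only 8 common sites remained, with a median SD of 12.8 against 11.4 for 25 other sites. A percentile cannot exceed 100, which bounds the spread of the highest sites.

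**Figure D3:**
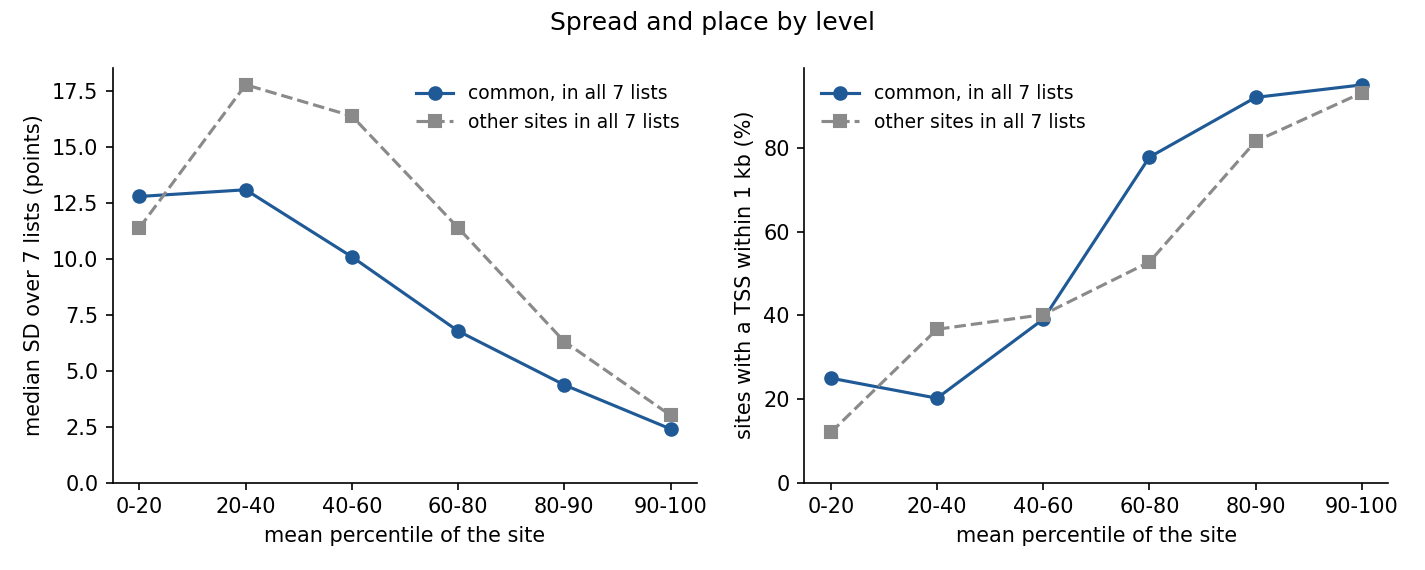
Median SD of the percentile over the 7 inbred lists, in points (left), and share of sites with a TSS within 1 kb, in percent (right), in 6 bins of mean percentile, for common sites called in all 7 strains (solid, blue) and the other union sites called in all 7 strains (dashed, grey). The blue line is under the grey one in the left panel from 20 upwards. In the right panel the blue line is higher than the grey one from 60 upwards and in the lowest bin, which holds 8 common sites.

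The positions of the 7 summits, the strongest point of the peak in each list, spanned a median of 48.0 bp, against 45.0 bp at the other union sites called in all 7 strains, and at 519 sites (51.8%) they fell within 50 bp. At the 739 sites with 1 peak in each of the 7 lists the median span was 46.0 bp, and at the 263 sites where some list had more than 1 peak it was 61.0 bp. The smallest span was 2.00 bp, at Tuba1c, an alpha-tubulin gene. The largest was 4063 bp, at Tenc1, which encodes a tensin of focal adhesions, where the lists held between 1 and 5 peaks.

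The 10 sites with the highest percentile in their lowest strain included 2 that ranked at the 100th percentile in all 9 lists, chr1:24618206-24623189, over the start of Gm10925, and chr2:22443646-22446192, 9688 bp from the start of Myo3a. Their sequence differed from that of the other sites, with a G+C content of 38.3% each in the central 300 bases, against a mean of 61.3% ± 6.68 (SD over 1002 sites). Aligned to the mitochondrial genome of the same assembly, the site on chromosome 1 had 99.94% identity over 4654 bases (93.4% of the site), and that on chromosome 2 had 97.59% over 2410 bases (94.6%). None of the other 1000 sites aligned at an expect value of 1e-10. Whether reads of mitochondrial DNA were placed at these 2 sites was not tested, and none of the 13 results recomputed without them changed its direction or its side of the threshold.

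Below these came 7 promoters and 1 distal site. The site of Trappc1, a subunit of a complex that tethers transport vesicles, and Cntrob, a centriole protein, is 1061 bp wide and lies at chr11:69136998-69138058. Its percentile was 99.2 in BXH2/TyJ and 98.8 in BXH19/TyJ, and among the inbred strains 99.0 in A/J, 99.3 in AKR/J, 99.2 in BALB/cJ, 99.6 in C3H/HeJ, 99.7 in C57BL/6J, 98.6 in CBA/J and 99.6 in DBA/2J. No strain stood apart, and the SD over the 7 inbred lists was 0.414 points. Zdhhc5, a protein palmitoyltransferase, had 98.4 to 99.8 in the inbred lists, and Obfc2a, a single-strand DNA-binding protein, 98.3 to 99.7. Pias4, a SUMO ligase (98.0 to 99.2), Pop7, a subunit of RNase P (98.0 to 99.4), Slc25a25, a mitochondrial carrier (98.2 to 99.7), and Tuba1c (97.9 to 99.8) completed the promoters of this group. Its single distal site was the intronic one of Itpkb, at chr1:182317369-182318040, 57024 bp from the nearest protein-coding start, that of Gm5069. It ranked at 94.0 in BXH2/TyJ and 96.7 in BXH19/TyJ, under the range of 98.2 to 99.8 in the 7 inbred lists.

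The widest sites were promoters too, except for 1 intergenic site of 4001 bp, 5861 bp from the start of Cirbp, an RNA-binding protein induced by cold. Stub1, a ubiquitin ligase that works with chaperones, had the widest, 6183 bp with a mean percentile of 94.0, and its site was split into 2 to 4 peaks in 6 of the 7 inbred lists. Foxo3, a forkhead factor restrained by insulin, followed with 5040 bp and a mean percentile of 96.4. Among the others were Gamt, which makes creatine (4377 bp), Mepce, which caps the 7SK RNA (4311 bp), Phf12, a subunit of SIN3 complexes (3880 bp), and Gapdh, an enzyme of glycolysis (3858 bp).

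Below the Itpkb and Cirbp sites, the next distal sites by mean percentile, which were chosen after their values were seen, also kept a high rank in all 9 lists. A 3169 bp site in an intron of Sin3a, the scaffold of a histone deacetylase complex, had a mean of 96.9, with 97.6 in BXH2/TyJ and 96 in BXH19/TyJ against 94.7 to 98.9 in the inbred strains. It lay 1114 bp from the start of the gene, just past the limit set for promoters. An intergenic site 5570 bp from Socs3, a feedback inhibitor of cytokine signalling, had 90.5 in BXH2/TyJ and 93.5 in BXH19/TyJ against 91.4 to 96.7. A site in an intron, 1240 bp from the start of Fosb, a subunit of AP-1, had 90.5 in BXH2/TyJ and 92.1 in BXH19/TyJ against 92.1 to 97.2. The site 22417 bp from Fgd2 was lower in BXH19/TyJ, at 86.0, than in any inbred strain (92.8 to 97.8), with 92.4 in BXH2/TyJ.

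The smallest spread below these levels was at the shared promoter of Cir1 and Scrn3, with a mean percentile of 94.3 and an SD of 0.473 points. It ranked at 95.2 in BXH2/TyJ and 93.5 in BXH19/TyJ, and between 93.8 and 95.2 in the 7 inbred lists. Pnpla7, a lysophospholipase, shares its site with Mrpl41, a mitochondrial ribosomal protein, and had 97.9 to 99.4 in the inbred lists with an SD of 0.531 points.

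The 10 sites with the largest spread were each low in 1 or a few strains. DBA/2J was the lowest strain at 5 of them, A/J at 3 and C57BL/6J at 2. An intergenic site at chr8:11055391-11056164, 47320 bp upstream of Irs2, an adaptor of the insulin receptor, ranked at 34 in BXH2/TyJ and 35 in BXH19/TyJ. There it was at 0.415 in DBA/2J but at 52.3 in A/J, 55.5 in AKR/J, 49.6 in BALB/cJ, 48.4 in C3H/HeJ, 61.9 in C57BL/6J and 53.2 in CBA/J. DBA/2J alone stood apart, near the bottom of its list, which was the shortest of the inbred lists. The other 6 inbred strains did not go below 48.4. A promoter site of Atp9a, a phospholipid flippase, was at 1.17 in C57BL/6J and between 46.3 and 60.9 in the other 6, with 18.9 in BXH2/TyJ and 38.9 in BXH19/TyJ. At the Kcnk15 site, 15376 bp from a potassium channel gene, A/J had 2.59 and the other 6 had 39.8 to 61.8, with 59.3 in BXH2/TyJ and 52.8 in BXH19/TyJ. Grhl2, an epithelial transcription factor 97215 bp from its site (5.71 in DBA/2J, 45.2 to 65.4 in the other inbred lists), and Hnrnpl, a splicing regulator (7.07 in DBA/2J, 51.7 to 61.8 in the other inbred lists), were also low in DBA/2J alone among the inbred strains. Hnrnpl was at 43.7 in BXH2/TyJ and 46.8 in BXH19/TyJ, and Grhl2 at 53.2 in BXH2/TyJ and 57.3 in BXH19/TyJ. The promoter site of Pla2g12b, a phospholipase-like protein, was at 36.6 in BXH2/TyJ and 46.5 in BXH19/TyJ, and among the inbred strains it was low in both C57BL/6J (13.8) and DBA/2J (20.3) and between 47.2 and 63.6 in the other 5. These sites were on the common list in spite of such ranks. The list was made from read counts and the ranks from peak signals, and the cause of the difference was not tested. Of all 54 sites with an SD over 15 points, DBA/2J was lowest at 20, A/J at 15 and C57BL/6J at 9.

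**Figure D4:**
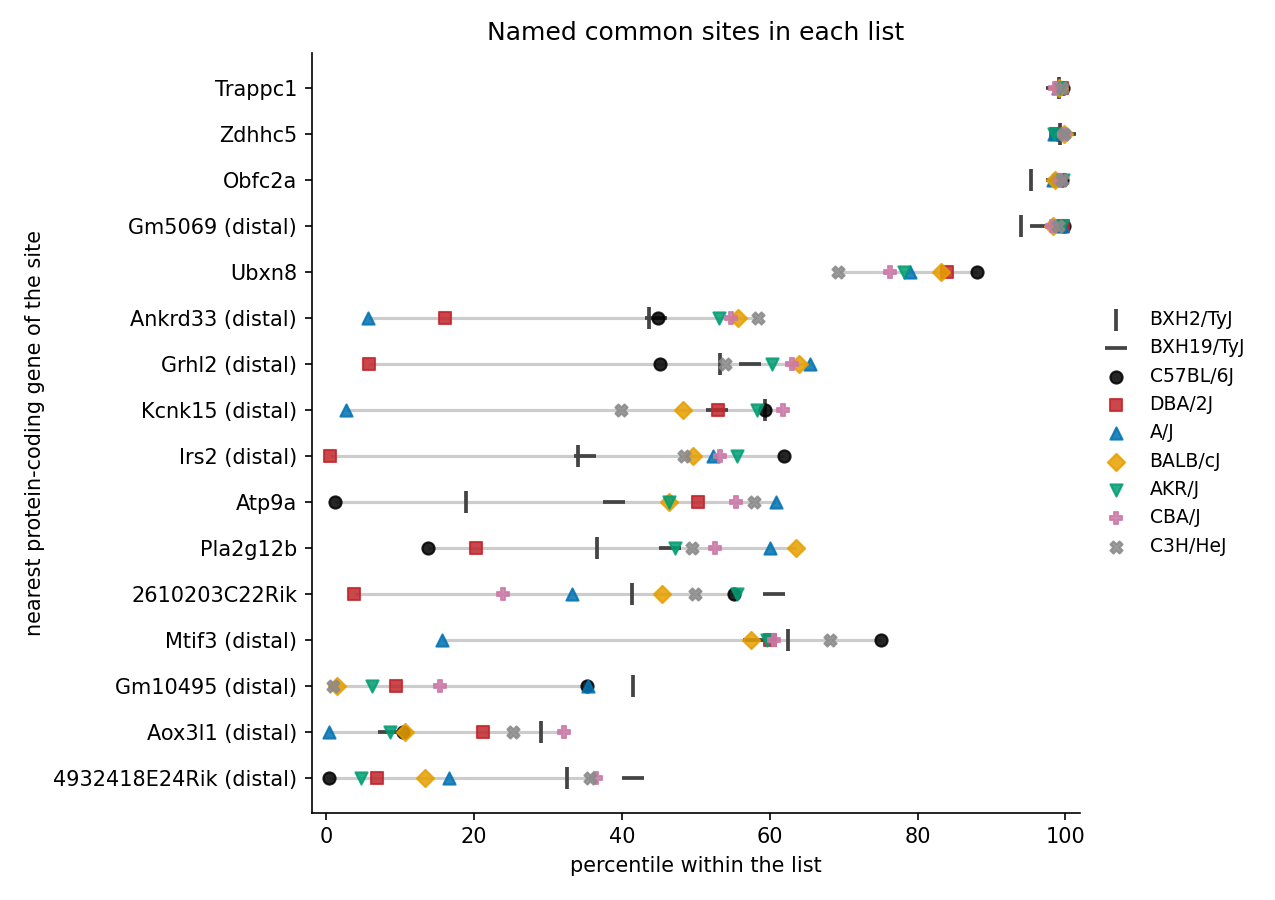
Percentile within the list (horizontal axis) of 16 common sites, named by their nearest protein-coding gene, in the 2 BXH lists (vertical and horizontal bars) and the 7 inbred lists (symbols), with a grey line over the inbred range. The upper 4 sites lie at 94.0 or more in all lists (Gm5069 is the site in the intron of Itpkb), Ubxn8 has no BXH value, and at most of the sites with large spread 1 or 2 symbols lie far to the left of the rest. The lowest 3 sites stay under 45.

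The weakest sites were short and mostly distal. The 10 with the lowest mean percentile had means of 14.8 to 20.2 and widths of 323 to 720 bp, and 8 of them were distal. The lowest, 84196 bp from Gm10495 at chr17:66584515-66584865, had no peak in BXH19/TyJ and 41.5 in BXH2/TyJ. In the inbred lists it was at 35.4 in A/J, 6.18 in AKR/J, 1.42 in BALB/cJ, 0.929 in C3H/HeJ, 35.2 in C57BL/6J, 15.3 in CBA/J and 9.47 in DBA/2J. It was thus close to the end of the lists of BALB/cJ and C3H/HeJ. The others lay near genes as different as Irf2, an interferon regulatory factor, Nrp2, a semaphorin receptor, and Arf1, a GTPase of the Golgi.

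At the edge of the rule, the 5 sites with the least overlap in any strain were covered by 180 bp (the promoter of Adra1a, an adrenergic receptor of liver), 181 bp (near Ier5 and near Htra4), 182 bp (near Shroom3) and 185 bp (near Fa2h) in the strain with the least, so none rested on a few bases. Just outside were 163 common sites called in 6 strains, with a median mean percentile of 26.8. The strain without a peak was A/J at 76 of them and DBA/2J at 57. The 5 highest lay near Vegfa (mean 53.8, no peak in DBA/2J), Gmeb2 (49.4, A/J), Tshz1 (49.0, DBA/2J), Psmf1 (47.0, C57BL/6J) and Ern1 (46.9, DBA/2J).

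The BXH lists were not used by the rule, but the lists of both their parents, C57BL/6J and C3H/HeJ, were. A peak was called in BXH2/TyJ at 987 of the 1002 sites (98.5%, 95% interval 97.5 to 99.2%) and in BXH19/TyJ at 995 (99.3%, 98.6 to 99.7%), against 54.7% and 55.7% of all autosomal union sites. Of the autosomal union sites called in both parents, 89.9% were called in BXH2/TyJ and 93.8% in BXH19/TyJ. The other common sites lack a call in some inbred strain by definition, so a lower BXH share there follows largely from the selection. Of these 1529 other common sites 619 were called in BXH2/TyJ and 611 in BXH19/TyJ (two-sided Fisher's exact tests, odds ratios 96.7 and 214, p = 3.8e-241 and 4.9e-258, adjusted p = 1.1e-240 and 3.0e-257). The tests give the size of this difference and no independent support for it. The size of the odds ratios depended on the rule: for BXH2/TyJ the odds ratio was 47.1 without A/J, 53.2 without DBA/2J and 316 with the 20000 highest peaks of each list, and for BXH19/TyJ it was 97.8 without A/J, 139 without C57BL/6J, 37 with a peak over at least 50% of a site and 581 with the 20000 highest peaks. Of the other union sites called in all 7 strains, 98.9% were called in BXH2/TyJ (odds ratio 0.758, p = 0.285, adjusted p = 0.342) and 99.0% in BXH19/TyJ (odds ratio 1.43, p = 0.502, adjusted p = 0.502, two-sided Fisher's exact tests). These last tests did not pass the threshold, which does not show that the sets are alike, and without DBA/2J in the rule the one for BXH2/TyJ did (97.2% against 98.4%, odds ratio 0.557, two-sided Fisher's exact test, adjusted p = 0.00705). Level moved with these shares as well, and its part was not tested: none of the 522 sites with a mean percentile of 80 or more lacked a BXH peak, while 12 of the 112 under 40 had none in BXH2/TyJ and 4 had none in BXH19/TyJ. By place, BXH2/TyJ called 736 of 741 promoter and 251 of 261 distal sites, and BXH19/TyJ 739 and 256.

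Where both BXH strains had a peak, their ranks were close. At 983 sites the percentile of BXH2/TyJ differed from that of BXH19/TyJ by a median of 4.48 points without regard to sign, and by more than 10 points at 204 (20.8%). Over 12659 other union sites called in all 7 strains the median was 6.46 points, and 34.2% differed by more than 10. By level the medians were 6.05 against 7.93 between 60 and 80, and 2.43 against 2.34 above 90. BXH2/TyJ lay within the range of the 7 inbred strains at 702 of 987 sites (71.1%), below it at 182 and above it at 103. BXH19/TyJ lay within it at 798 of 995 (80.2%), below it at 104 and above it at 93. The shares within the range were not computed for other union sites, so they show no trait particular to the common sites.

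A total of 19 sites lacked a peak in 1 or both BXH lists, 14 of them distal, and 18 had a mean percentile under 60. The exception was the promoter of Ubxn8, an endoplasmic reticulum protein that binds the p97 ATPase, 874 bp wide at chr8:34751960-34752833. It had no peak in BXH2/TyJ and none in BXH19/TyJ, but ranked at 88.1 in the parent C57BL/6J, 69.2 in the parent C3H/HeJ, 79.0 in A/J, 78.2 in AKR/J, 83.2 in BALB/cJ, 76.2 in CBA/J and 84.0 in DBA/2J. The nearest BXH peaks were 11013 bp away in BXH2/TyJ and 11001 bp in BXH19/TyJ, and within 50 kb of the site BXH2/TyJ had 4 peaks and BXH19/TyJ 5, against 2 to 7 in the inbred lists. Of 7495 union sites called in all 7 strains with a mean percentile of 70 or more, 4 had a peak in neither BXH list, and Ubxn8 was the only common one. The other common sites missing in both BXH lists had low ranks, an exonic site of Loxl4, a lysyl oxidase (mean 31.7), and the promoter of Gng8, a G protein subunit (mean 17.5). Distal sites missing in 1 list included those near Invs (51.7, no peak in BXH2/TyJ) and Serpina10, an inhibitor of coagulation (41.2, no peak in BXH19/TyJ and at 0.435 in BXH2/TyJ). A promoter site of Zfp259 went the other way, with a percentile of 85.6 in BXH19/TyJ and no peak in BXH2/TyJ, against 0.480 to 42.5 in the 7 inbred lists.

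Of the listed genes a minority had such a site at the promoter. A common site called in all 7 strains lay within 1 kb of a TSS of 3.93% of the 21281 autosomal protein-coding genes, and any union site called in all 7 strains did so for 41.4%. Of 349 listed autosomal genes in 18 lists, 40 had one. The largest counts were 6 of 18 housekeeping genes, 6 of 20 genes of fatty acid oxidation and ketogenesis and 6 of 24 of the oxidative stress response, and in the same lists 18, 17 and 21 genes had some site called in all 7 strains within 1 kb. No list was tested. None of 15 fatty acid synthesis genes, 13 apolipoproteins or 25 markers of other liver cell types had a common site within 1 kb. At the overall share of 3.93%, lists of this size can hold none, so this does not set them apart. Some site called in all 7 strains lay within 1 kb of 14 of the fatty acid synthesis genes and 11 of the apolipoproteins. Of 6 hepatocyte markers, Apoa1, Apob and Hnf4a had a site called in all 7 strains and only Hnf4a a common one, while 2 of the 25 markers of other cell types (Sox9 and Lck) had any.

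Of the fatty acid oxidation genes, Acsl1, which activates fatty acids, had the highest site, with a mean percentile of 98.7 and 96.4 to 99.5 in the inbred lists. Hadha and Hadhb, the subunits of the mitochondrial trifunctional protein, share a site between them at 83.1. Ehhadh (84.1) and Acaa1a (88.6) encode enzymes of peroxisomal oxidation. The Acaa1a site is shared with Myd88, whose start was the nearest to its midpoint. Cpt1a, which controls entry of fatty acids into mitochondria, had 2 sites of very different level: that 753 bp upstream of the start had a mean of 24.7, with 0.415 in DBA/2J and 45.4 in A/J, and that 1857 bp downstream, in the gene, a mean of 89.3, with 85.8 to 93.7. The downstream site was at 95.2 in BXH2/TyJ and 88.5 in BXH19/TyJ.

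Further lipid genes with a common site within 1 kb were Dgat1, which makes triglycerides (92.0), the lipid droplet coats Plin2 (85.7) and Plin5 (86.0), Mvk (93.8) and Dhcr7 (97.2) of cholesterol synthesis, and Scap, the escort of SREBP (88.4). The Dhcr7 site is shared with Nadsyn1, whose start was the nearest to its midpoint. Slc27a5, which activates bile acids, was low, with a mean of 28.9 and 16.2 to 41.2 in the inbred lists. In the regulator lists, Hnf4a, the master factor of hepatocytes, had a mean of 80.9 with 72.3 in DBA/2J and 87.8 in BALB/cJ, and Xbp1, of the secretory stress response, 88.7. The liver X receptor Nr1h2 had 92.9, and the clock genes Arntl and Tef had 91.5 and 95.8. Arntl was at 77.7 in A/J and 86.5 to 98.4 in the other inbred strains.

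Other enzymes with a site at the promoter were Ass1 of the urea cycle (92.9), Fah of tyrosine breakdown (82.9), Pygl, the glycogen phosphorylase of liver (88.0) and Ephx1, a microsomal epoxide hydrolase (69.6). Pygl ranked at 99.4 in BXH2/TyJ and 96.9 in BXH19/TyJ, above the highest of the 7 inbred strains, 95.2 in A/J. The 6 of 24 oxidative stress genes with a site had means of 97.9 for Gpx4, 96.5 for Gss, 94.1 for Nfe2l1, 90.4 for Txn1, 86.9 for Prdx1 and 83.9 for Prdx5. The 9 listed genes nearest to a distal common site included Rxra (77.6 and 56.1 at 2 sites), Mlxipl, the carbohydrate response factor (63.7), Pklr (35.1), Cebpa (28.2) and Sin3a (96.9). At the Cebpa site, 7841 bp from the gene, C57BL/6J had 2.16 and BALB/cJ 48.3, with 57.6 in BXH2/TyJ and 37.7 in BXH19/TyJ.

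Sequence composition followed place. In the central 300 bases promoter sites had a mean G+C content of 63.2% and a median ratio of observed to expected CpG of 0.795, and distal sites 56.1% and 0.289. The GC box was found in 59.8% of promoter and 21.8% of distal sites, compared with 27.4% of all autosomal union sites. ETS letters were in 19.3% of promoter and 6.90% of distal sites (5.72% of all), NRF1 in 3.51% and 1.53% (1.44%), and CCAAT in 29.0% and 26.8% (29.6%). Distal sites held the CTCF core in 10.7%, promoter sites in 3.78% and all union sites in 5.91%. The HNF4A letters CAAAGT were in 16.9% of distal sites (17.5% of all), C/EBP in 11.5% (12.6%) and FOXA, TGTTTAC, in 4.60% (4.60%). Set against other union sites called in all 7 strains of the same place, the GC box was in 59.8% against 63.2% of promoters, ETS in 19.3% against 16.2%, and the CTCF core in 10.7% against 5.51% of distal sites. The CTCF core was also in 12% of the other common sites. Shares were not tested, windows of equal length differ in base composition, and CCGGAAG and GGGCGG contain CG or lie in GC-rich sequence.

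**Figure D5:**
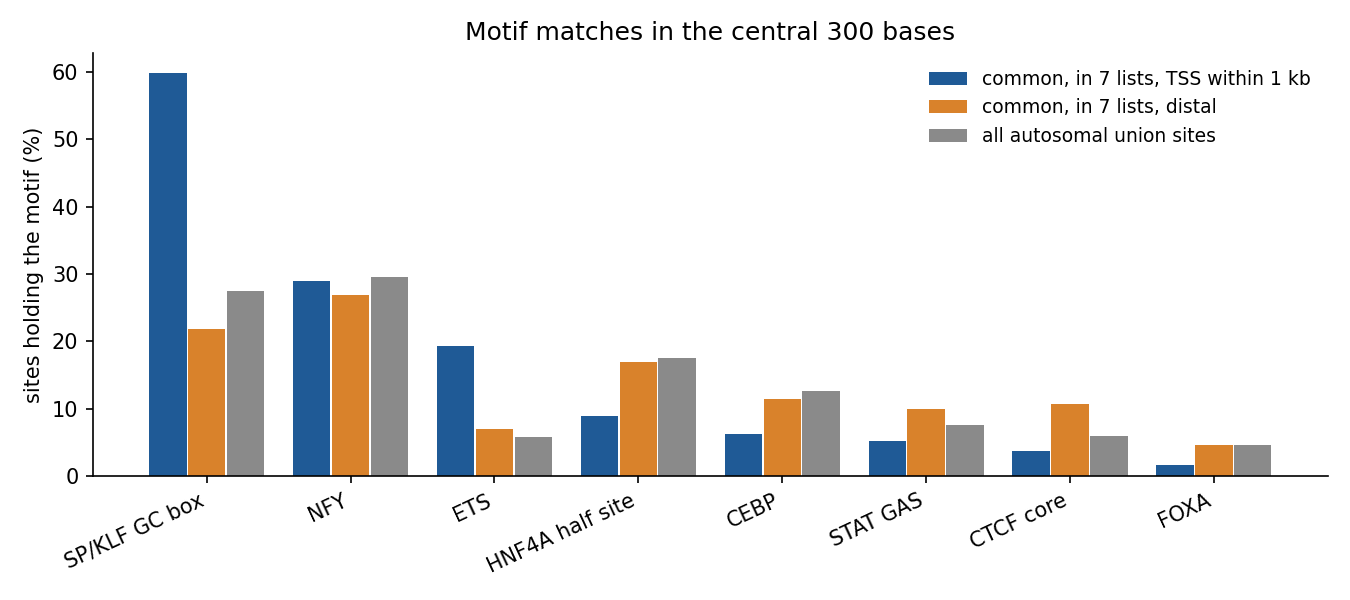
Share of sites, in percent, that hold the letters of 8 motifs on either strand of the central 300 bases, for promoter (blue) and distal (orange) common sites called in all 7 strains and all autosomal union sites (grey). Blue bars are the tallest for the GC box (59.8%) and ETS (19.3%), and orange bars for the CTCF core (10.7%) and STAT GAS (9.96%).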

How the data were processed

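FAIRE-seq of liver from 9 strains, 18 libraries in all, was analysed. The authors aligned reads with Bowtie to mm9 or a version of it carrying a strain's SNPs, kept reads with a single location (BXH reads were aligned to mm9 and to the C3H/HeJ version, and which alignment the deposited BXH lists hold was not stated), called peaks with F-seq and combined replicates with IDR. Their versions and the IDR threshold were not stated in the sources used here. The deposited signal of each peak (F-seq) has no stated scaling between strains, so the authors' values were turned into percentiles within a list. The authors counted reads over the union, quantile-normalized them, tested them with DESeq and deposited the 5.00% of sites with the largest adjusted p-values as common sites. Those counts were not used here. Uniquely placed reads and SNP-adjusted genomes can still leave repeated or absent sequence without signal.

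The union was rebuilt from the 7 inbred lists, and every common site has the start and end of a union site. A call in a strain needed 1 bp or more of overlap with one of its peaks. TSS came from GENCODE M1 on NCBIM37, which is mm9. Of 353 listed genes 352 were matched, 2 by an older symbol. Shares were compared by Fisher's exact test, two-sided, with Benjamini-Hochberg adjustment over 6 comparisons at 0.05, and intervals are exact Clopper-Pearson at the 95% level, for counting error only. Steps were checked on simulated data. The sites and lists were chosen with earlier results of these data known. Named are the 10 sites at each end of level and spread, the 10 widest, the 10 highest without a BXH peak, the 5 sites on each side of the rule, and up to 30 listed genes with a site within 1 kb. Some listed genes are not reported here. Listed genes near distal sites were added after their values were seen. The alignment to the mitochondrial genome was added after the data were seen. Tools were Python 3.11.15, numpy 2.4.6, pandas 2.3.3, scipy 1.17.1, matplotlib 3.10.9 and blastn 2.17.0.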

Additional observations from a re-analysis of the deposited data

Results flagged for a closer look

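At 6 of 24 sets of 7 inbred values examined, 1 strain lay farther from the rest than Dixon's 95% limit allows. The sets were 4 summaries per strain, of which none was flagged, and the percentiles of the 20 named sites with the largest spread or the lowest mean. Chance flags about 1 in 20 such groups when they are chosen without regard to their values. All 6 flagged sites were among those taken for the largest spread, a choice that itself favours sites with a strain apart. The count therefore cannot be compared with the chance rate, and no excess is read from it. The strain apart was DBA/2J at the site near Irs2 (0.415), the site near Grhl2 (5.71) and the promoter site of Hnrnpl (7.07). It was A/J at the sites near Kcnk15 (2.59) and Mtif3 (15.6), and C57BL/6J at the promoter site of Atp9a (1.17). In each case the strain apart was the lowest.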

How the results depend on the processing

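Of 159 values under alternatives for 13 results, 139 were counted as kept. The measure was direction and side of the threshold, an interval or, for the number of sites, a set factor. A change of direction in a test that did not pass the threshold also counted as kept. Against other union sites called in all 7 strains, the odds ratio for BXH19/TyJ calls was 1.43. It was 0.534 with the 20000 highest peaks and 0.885 with a peak over at least 50% of a site. For BXH2/TyJ it was 0.758, and under the same alternatives 0.622 and 1.52, in that order. No paired analysis was possible because each list combines both replicates, and leaving out a replicate was not possible for the same reason. With a peak required over at least 50% of a site, 700 sites met the rule in place of 1002. Of these, 96.6% were called in BXH19/TyJ and the median width was 1030 bp. With the 20000 highest peaks of each list, 827 sites met the rule. Of these, 84.2% were promoters, the median width was 1188 bp, the median of the mean percentile 85.2 and the median SD 4.30 points. Promoters were 69.2% with a TSS within 500 bp and 77.5% within 2 kb. The strains' own peaks had a median mean width of 806.4 bp. Taking the mean of overlapping peaks gave a median of 77.5 for the mean percentile and 7.52 points for the SD, and log2 of the signal, another scale, a median SD of 1.19. When single inbred strains were left out, 1005 to 1078 sites met the rule, promoters were 69.5 to 73.7% of them, BXH2/TyJ calls 96.8 to 98.5%, BXH19/TyJ calls 98.3 to 99.3%, the median width 1031 to 1062 bp and the median of the mean percentile 79.2 to 81.3. Each of these shares and medians was lowest without A/J. The median SD was 4.90 to 5.26 points. The odds ratio for BXH2/TyJ calls against other union sites called in all 7 strains was 0.557 to 1.06, and the difference passed the threshold only without DBA/2J (0.557, adjusted p = 0.00705 by Fisher's exact test), where 97.2% of sites were called against 98.4%. The causes were not tested. Removing the 2 sites aligned to the mitochondrial genome, chosen after seeing the data, moved no result beyond its limits.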

Other observations

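Some common sites called in all 7 inbred strains had a BXH rank far from all of them, and those given here were chosen after their values were seen. Sox4, a developmental transcription factor, had a promoter site at 70.6 in BXH2/TyJ and 1.39 in BXH19/TyJ, against 24.1 to 52.2 in the inbred lists. The promoter of Tipin, a replication fork protein, was at 42.8 in BXH19/TyJ and 83.9 in BXH2/TyJ, against 83.2 to 93.3. Sdsl, a serine dehydratase-like enzyme, was at 14.7 in BXH2/TyJ and 65.6 in BXH19/TyJ, against 28.8 to 73.0. More than 20 points from the mean of the 7 inbred strains were 55 of the 987 sites called in BXH2/TyJ and 21 of the 995 called in BXH19/TyJ. No such count was made at other union sites, so whether these departures are more or less frequent at common sites is not known.

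Over all autosomes, common sites took 7.20% of the sites called in all 7 strains. The share was 9.12% on chromosome 5 and 8.52% on chromosome 1, compared with 4.53% on chromosome 18 and 4.66% on chromosome 14, which are the ends of the range over the autosomes. Another common site called in all 7 strains lay within 10 kb of 42 of the 1002 sites (4.19%). These values were not tested.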
